A study of Mus musculus with 12 samples.

Results

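A set of 10 genes of the CXC chemokine system was followed across 12 mouse pancreas tumours, chosen by name from the 30735 genes of the arrays: the ligand genes Cxcl1, Cxcl2, Cxcl5, Cxcl10, Cxcl12, Cxcl14 and Cxcl16 and the receptor genes Cxcr2, Cxcr4 and Ackr3. Each gene was read by the probe set of highest mean that the platform annotation ties to it. For 9 of the 10 genes that annotation lists exactly 1 symbol, and for Ackr3 it lists the current name and the older name Cxcr7. The tumours came from PKT mice, a genetically engineered model of pancreatic ductal adenocarcinoma, and each array was a separate animal per the series text. The FAP depleted group was set against the FAP-TK control group, and the aSMA depleted group against the aSMA-TK control group, with 3 tumours in each. Fibroblast activation protein (FAP, from the gene Fap) marks many tumour fibroblasts, and alpha smooth muscle actin (aSMA, from Acta2) marks myofibroblasts and vessel walls. The viral thymidine kinase, TK, turns ganciclovir into a poison for the cell that makes it. All 12 tumours carry the PKT background and the same treatment label, ganciclovir at 50 ug per kg. The controls are marked only as undepleted, so it is not clear whether they received the drug. The sources used here give neither the promoters that drive TK nor the alleles behind the name PKT. Tissue depleted of a cell type and tissue whose cells hold less RNA cannot be told apart in such bulk samples.

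CXC chemokines are small secreted proteins that guide the movement of leukocytes through receptors of the G protein-coupled kind. In mice, Cxcl1, Cxcl2 and Cxcl5 carry a glutamate-leucine-arginine motif (ELR), bind Cxcr2 and draw neutrophils, and transcription of Cxcl1 and Cxcl2 is a well-known response to NF-kB, the factor downstream of interleukin 1 and TNF. Cxcl10 is induced by interferons and attracts T cells through Cxcr3, while Cxcl12, made by fibroblasts and other stromal cells, holds and positions leukocytes through Cxcr4 and is scavenged by the atypical receptor Ackr3. In mouse pancreatic tumours, Cxcl12 from FAP-positive fibroblasts is known for its part in keeping T cells away from tumour cells.

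Values are log2 intensities, quantile normalized between arrays, and differences are in log2 units. The arrays of the aSMA line had the lower background: the median of the negative-control probe sets lay between 4.46 and 4.88 on its 6 arrays and between 5.46 and 6.49 on the 6 arrays of the FAP line, on the deposited scale. Animal line and array background cannot be told apart. Control-probe separation, the gap between the medians of positive and negative control probe sets, was 2.69 on FAP depleted replicate 2 and 2.97 and 2.99 on FAP-TK control replicates 1 and 3, and lay between 4.32 and 4.89 on the other 9 arrays. For 9 of the 10 genes the lowest of the 12 values fell on one of those 3 arrays, which was so for 44.6% of all genes. The labelled targets were checked first. Fap had values of 5.52, 5.34 and 6.21 in FAP depleted tumours, all below the 6.56, 7.31 and 6.53 of FAP-TK control tumours. Acta2 had values of 10.13, 13.86 and 15.28 in the tumours labelled aSMA depleted and of 12.26, 10.85 and 11.12 in aSMA-TK control tumours. Since 2 of the 3 lay above every control, that group is called here by its label.

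Of the 10 genes, only Cxcl16 stood above the 95th percentile of the negative-control probe sets of its array on most arrays, on 9 of 12. Cxcl5 and Cxcl14 did so on 3 arrays each, Cxcl2 on 2 and Cxcl1 on 1. Cxcl10, Cxcl12, Cxcr2, Cxcr4 and Ackr3 did so on none, and Cxcl10 and Ackr3 also lay under the median of the negative controls on every array. All 10 were above the median of the antigenomic background probe sets on all 12 arrays. A difference in a gene that is not well above background is given as measured and is not turned into a fold, since low signal compresses it.

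**Figure D1:**
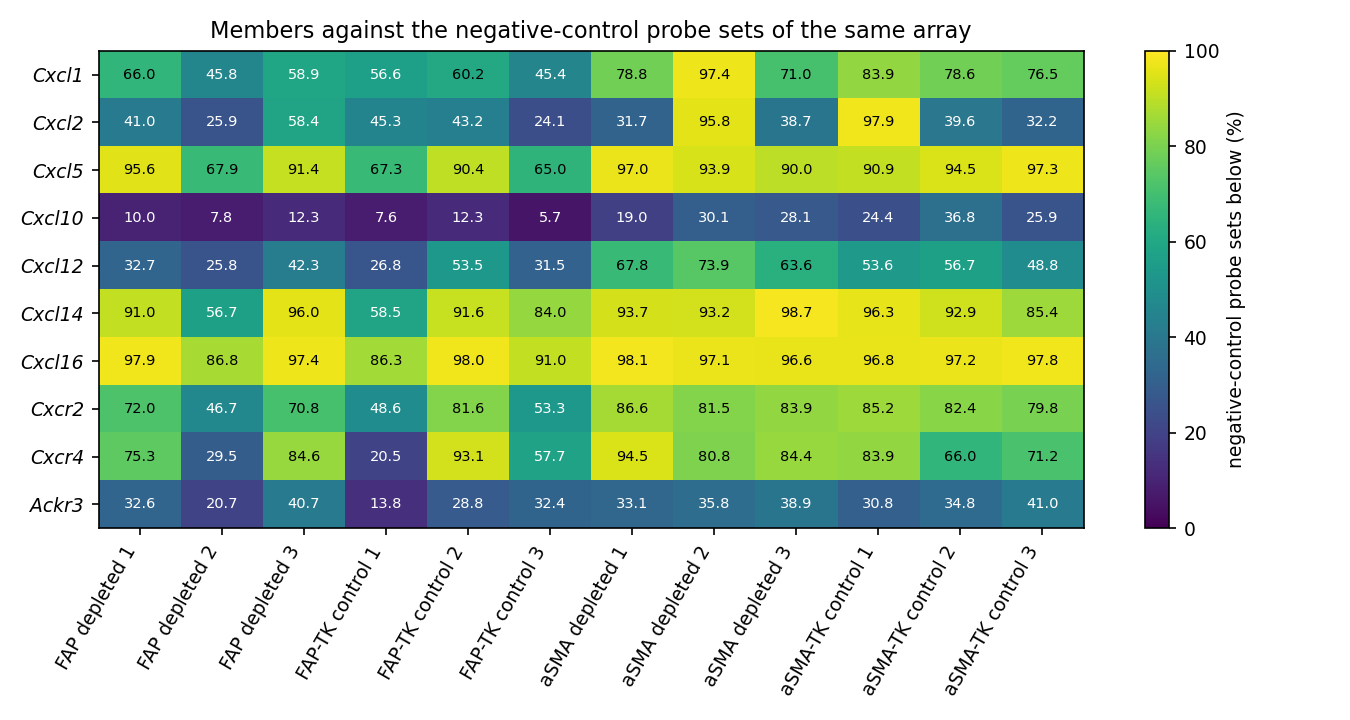
Percent of the negative-control probe sets of the same array that lie below each gene, with genes down the page and the 12 arrays across. Cxcl16 ran from 86.3% to 98.1%, while Cxcl10 ran from 5.7% to 36.8% and was higher on the arrays of the aSMA line.

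The first question was whether removal of FAP-positive cells went with a change in these signals. None of the 10 genes passed the test in FAP depleted against FAP-TK control tumours by limma's moderated test with Benjamini-Hochberg adjustment over all genes, and none had groups that did not overlap. The gene of smallest unadjusted p was Cxcl12, at -0.38 ± 0.26 (limma SE, 3 tumours per group, unadjusted p = 0.18, adjusted p = 1.00). Each SE given here rests on 1 estimate of spread per gene, shared by all 4 groups. High single arrays in 1 line therefore widen it in the other line too. The background was 0% of genes called, with 1141 genes, or 3.71%, at an unadjusted p under 0.05 and 8.12% of genes with groups that did not overlap, against 0 of the 10 on both counts. Without the 3 arrays of low separation 13 genes were called, none of them among the 10, but the control arm was then the single tumour FAP-TK control replicate 2, assumed to vary like the other groups. Of the 10 differences, 5 were above 0 and 5 below, with a median of -0.0222, beside a median of 0.038 over all genes.

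In the tumours labelled aSMA depleted against aSMA-TK control tumours, none of the 10 genes passed the limma test either. Cxcl12 was the nearest, at 0.98 ± 0.26 (unadjusted p = 0.00428, adjusted p = 0.943), and the only one whose groups did not overlap. Here too 0% of all genes were called, 1483 genes or 4.83% had an unadjusted p under 0.05, and groups did not overlap in 12.5% of all genes, so 1 gene of 10 is near the background. The median difference over the 10 genes was 0.16, beside 0.014 over all genes, with 6 genes above 0.

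**Figure D2:**
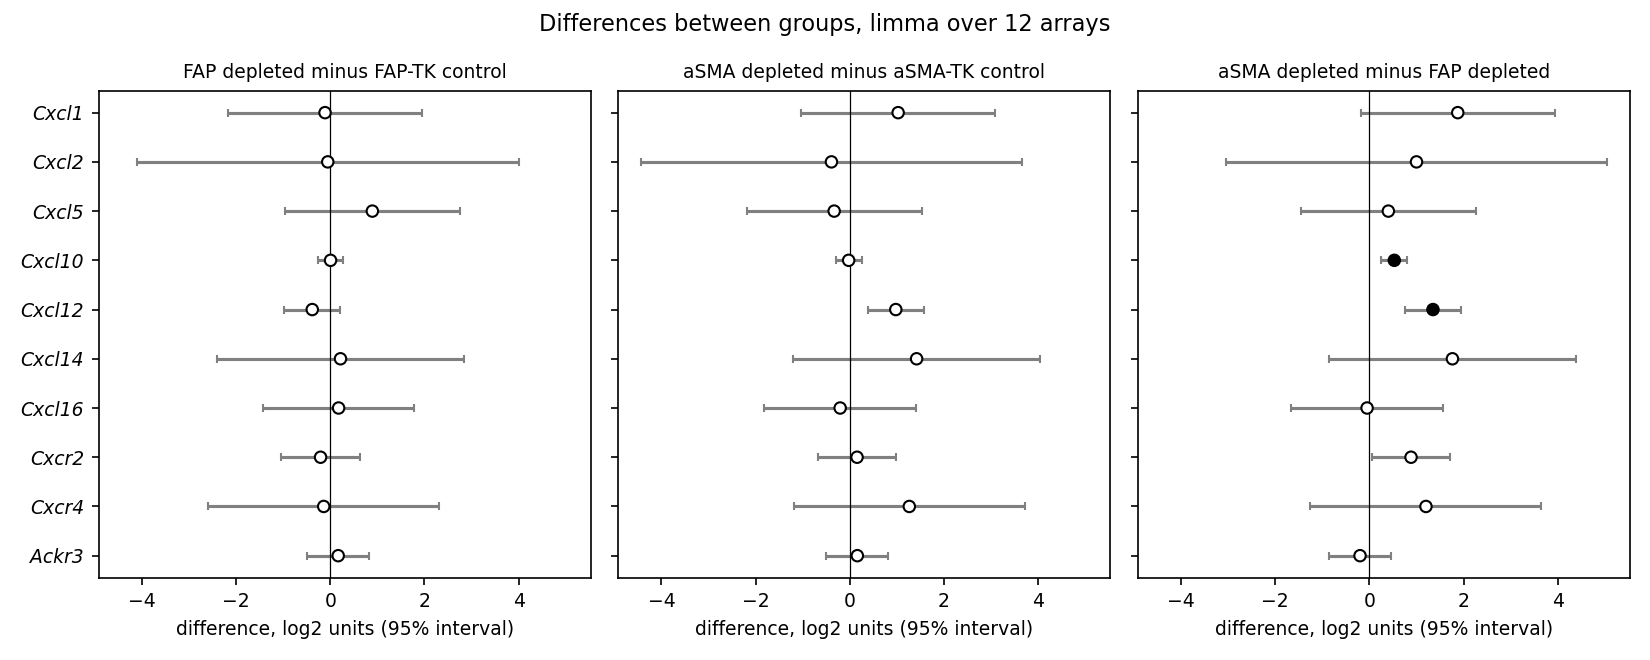
Difference between groups for each gene in 3 comparisons, on the log2 scale, with 95% intervals from limma over the 12 arrays. Filled points passed an adjusted p under 0.05, which holds only for Cxcl10 at 0.53 and Cxcl12 at 1.35 in the tumours labelled aSMA depleted against FAP depleted tumours.

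The neutrophil-attracting ligand genes lie close together on chromosome 5 of assembly GRCm38.p6: Cxcl5 at chr5:90759298-90761625, Cxcl1 at chr5:90891245-90893121 and Cxcl2 at chr5:90903899-90905938. The 250 bases before the RefSeq starts of Cxcl1 (chr5:90890995-90891244, plus strand) and Cxcl2 (chr5:90903649-90903898, plus strand) are shown because both genes were high on 1 shared array and both hold the same kappa-B match. Capitals mark matches, on either strand, to the kappa-B motif bound by NF-kB, searched as GGGA and CC with any 4 bases between them, overlapping matches joined.
Cxcl1: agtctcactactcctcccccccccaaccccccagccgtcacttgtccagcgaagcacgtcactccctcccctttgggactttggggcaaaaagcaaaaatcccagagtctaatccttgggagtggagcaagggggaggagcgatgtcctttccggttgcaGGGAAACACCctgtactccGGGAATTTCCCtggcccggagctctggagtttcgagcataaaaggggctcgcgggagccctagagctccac
Cxcl2: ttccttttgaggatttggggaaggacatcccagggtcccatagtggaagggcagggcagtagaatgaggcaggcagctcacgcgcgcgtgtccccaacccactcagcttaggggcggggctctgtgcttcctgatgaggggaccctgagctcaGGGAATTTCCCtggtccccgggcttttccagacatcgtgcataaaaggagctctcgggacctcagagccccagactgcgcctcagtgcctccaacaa
Counted from the start, with -1 as the last base before it, the run GGGAATTTCCC lies at -71 to -61 in Cxcl1 and at -97 to -87 in Cxcl2, and GGGAAACACC at -90 to -81 in Cxcl1. The motif was present in 17.6% of the 32851 promoter windows of the same length. A stricter form, with TT as the middle 2 of the 4 free bases, was present in 0.98% and is met by GGGAATTTCCC, and also in the promoter of Cxcl10. A match is a description of the letters only. Cxcl5 has no entry in the promoter table.

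Cxcl1 was high in a single tumour. Its values were 6.20, 5.59 and 5.72 in FAP depleted tumours and 6.42, 5.88 and 5.54 in FAP-TK control tumours, a difference of -0.11 ± 0.92 (adjusted p = 1.00). In the aSMA line they were 6.82, 10.44 and 5.89 in the tumours labelled aSMA depleted and 6.93, 6.50 and 6.63 in aSMA-TK control tumours, a difference of 1.03 ± 0.92 (adjusted p = 0.945, exact permutation p = 0.8). Replicate 2 of the tumours labelled aSMA depleted stood more than 3 log2 units above every other array, and without it the difference turned to -0.34.

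Cxcl2 was high in that same tumour and in 1 control. It had values of 4.91, 4.48 and 5.69 in FAP depleted tumours, against 5.75, 5.04 and 4.45 in FAP-TK control tumours, a difference of -0.052 ± 1.81 (adjusted p = 1.00). The tumours labelled aSMA depleted had 4.42, 9.36 and 4.30, against 10.85, 4.15 and 4.25 in aSMA-TK control tumours, a difference of -0.39 ± 1.81 (adjusted p = 0.987). The 2 high arrays, 1 in each group of the aSMA line, were the only ones above the 95th percentile of the negative controls. Leaving out 1 array at a time moved this difference between -2.06 and 1.83.

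The paralogue Cxcl3, the interleukin 1 gene Il1b and the NF-kB inhibitor gene Nfkbia were looked at on these arrays after their values had been seen. Cxcl3 reached 8.51 in replicate 2 of the tumours labelled aSMA depleted and 6.73 in aSMA-TK control replicate 1, and its other values lay between 5.08 and 5.96. Il1b was likewise highest on those arrays, at 11.34 and 11.79, with 9.41 in FAP-TK control replicate 2 as the next. Nfkbia read 12.10 and 11.64 there, and 11.50 in replicate 1 of the tumours labelled aSMA depleted, which was low for Cxcl2. Il6, Relb and Birc3, also NF-kB target genes, were not high in aSMA-TK control tumours. Il6 did not exceed 4.04 there, against up to 6.01 in FAP depleted tumours. Relb (6.37) and Birc3 (8.23) had their highest aSMA-TK control values below the highest of FAP depleted tumours (6.63 and 8.79). In the tumours labelled aSMA depleted the highest values were 9.40 for Il6, 9.34 for Birc3 and 6.45 for Relb. Other NF-kB target genes were higher in aSMA-TK than in FAP-TK control tumours. Tnf stood at 2.09 ± 0.62 (limma adjusted p = 0.0667) and Ccl20 at 0.60 ± 0.21 (limma adjusted p = 0.103). Of 12 such genes 8 were above 0 and 4 below there, with a median of 0.34 and none called, beside 58% of all genes above 0. Over the deviations of the 12 arrays from their group means, the mean of 12 NF-kB target genes correlated with Cxcl1 at r = 0.84 (Spearman's rho = 0.80) and with Cxcl2 at r = 0.81 (rho = 0.78), and without those 2 arrays at r = 0.67 and 0.65. On the 10 arrays left, Cxcl12 (r = 0.71), Cxcr2 (r = 0.66), Cxcl16 (r = 0.65) and Cxcr4 (r = 0.60) went with that mean about as closely. Being sequence relatives, Cxcl1, Cxcl2 and Cxcl3 may share probes, which was not tested.

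**Figure D3:**
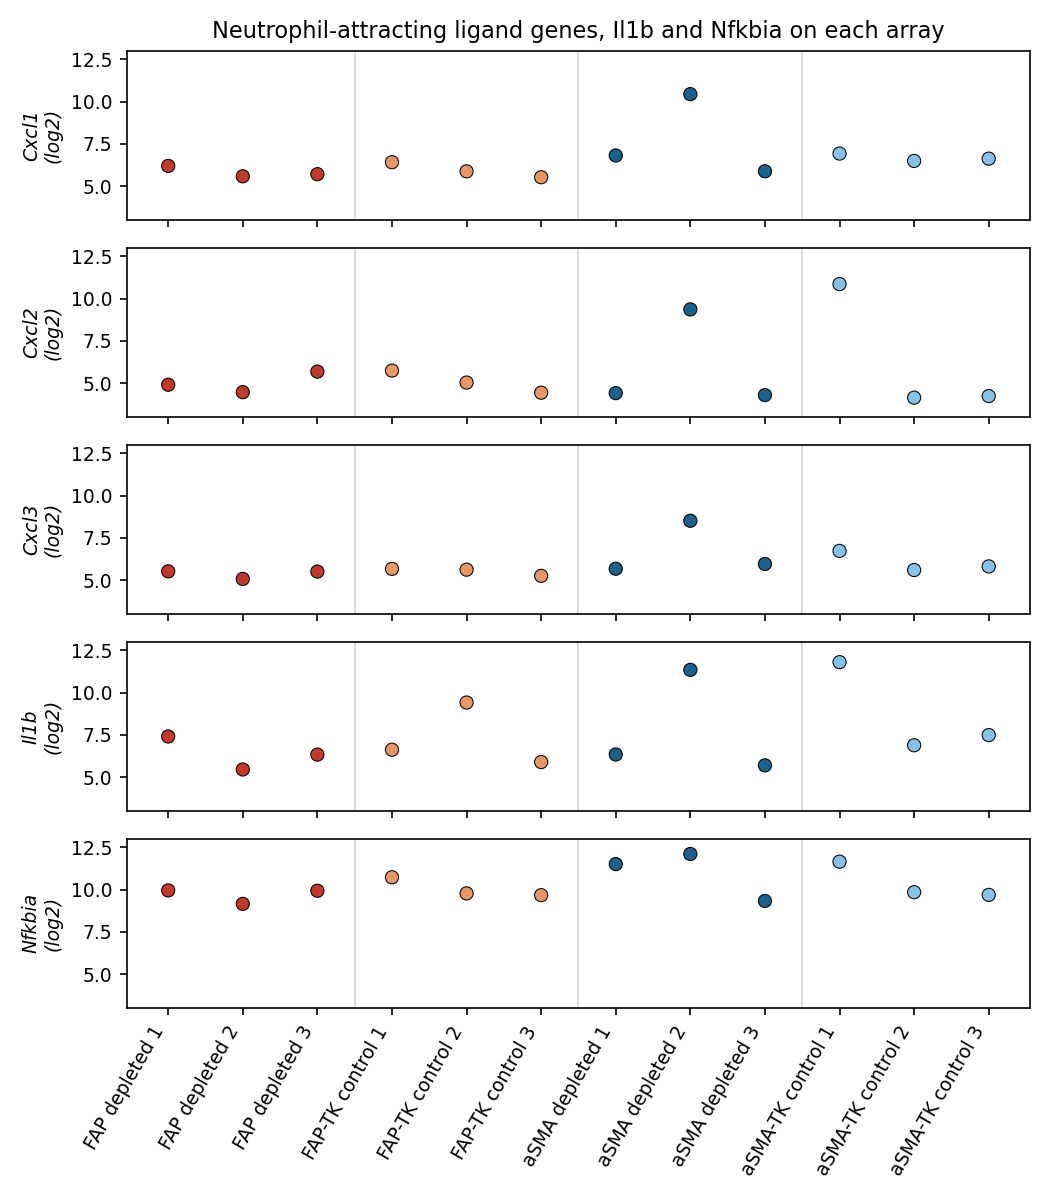
Log2 value of Cxcl1, Cxcl2, Cxcl3, Il1b and Nfkbia on each of the 12 arrays, coloured by group. Replicate 2 of the tumours labelled aSMA depleted is high for each gene, and aSMA-TK control replicate 1 is high for Cxcl2 at 10.85 and Il1b at 11.79 but not for Cxcl1 at 6.93.

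Cxcl5, a neutrophil attractant made largely by epithelial cells, varied within every group. Its values were 9.46, 7.01 and 8.28 in FAP depleted tumours and 7.13, 8.26 and 6.67 in FAP-TK control tumours, a difference of 0.89 ± 0.83 (adjusted p = 1.00). They were 9.79, 8.63 and 7.53 in the tumours labelled aSMA depleted, and in aSMA-TK control tumours 7.84, 8.81 and 10.30, a difference of -0.33 ± 0.83 (adjusted p = 0.981). The groups overlapped in both lines, and the 3 lowest values of the gene lay on the 3 arrays of low control-probe separation. Its deviations went with the mean of 8 ductal epithelial genes at r = 0.67 (rho = 0.77), and at r = 0.71 without the 2 arrays farthest from the median of that mean. They went as closely with the mean of 6 T cell genes (r = 0.67, rho = 0.72, and r = 0.69 without 2 arrays).

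Cxcl10, the interferon-induced ligand, showed no detectable change with depletion but differed between the lines on the normalized values. The gene lies at chr5:92346638-92348889 of GRCm38.p6, and the 250 bases before its start (chr5:92348890-92349139, minus strand) are shown because they hold both kinds of element searched for, with the core of the interferon-stimulated response element (GAAA, any 2 bases, GAAA) and the kappa-B motif in capitals.
Cxcl10: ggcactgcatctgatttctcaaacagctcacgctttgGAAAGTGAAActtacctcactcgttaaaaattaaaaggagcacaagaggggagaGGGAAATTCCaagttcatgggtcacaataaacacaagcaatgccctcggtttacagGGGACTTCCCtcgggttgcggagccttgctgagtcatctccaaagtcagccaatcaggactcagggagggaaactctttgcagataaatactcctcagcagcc
The response element core GAAAGTGAAA lies at -213 to -204, and the kappa-B matches GGGAAATTCC and GGGACTTCCC at -159 to -150 and -103 to -94. GGGACTTCCC meets the stricter form too. The deviations of Cxcl10 and of the NF-kB target mean correlated at r = 0.0058 (rho = 0.26). Without the 2 arrays farthest from the median of that mean r was 0.31. The response element core was found, on either strand, in 2.98% of all promoter windows, and among the 8 genes here with an entry also in that of Cxcl14.

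Its values were 3.29, 3.24 and 3.34 in FAP depleted tumours and 3.30, 3.38 and 3.17 in FAP-TK control tumours, a difference of 0.0073 ± 0.12 (adjusted p = 1.00). In the tumours labelled aSMA depleted they were 3.75, 3.90 and 3.81, against 3.57, 4.04 and 3.91 in aSMA-TK control tumours, a difference of -0.024 ± 0.12 (adjusted p = 0.990). On the normalized values every array of the aSMA line was above every array of the FAP line. On the deposited values the lines overlapped. Replicate 1 of the tumours labelled aSMA depleted (3.42) and aSMA-TK control replicate 1 (3.48) lay below FAP-TK control replicate 2 (3.49). The 95% intervals of the depletion differences were the narrowest among the 10 genes. They ran from -0.27 to 0.28 in the FAP line and from -0.30 to 0.25 in the aSMA line. Since the gene lay under the negative-control median on all 12 arrays, a narrow interval here does not exclude a change in its RNA.

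Between the control tumours, aSMA-TK against FAP-TK, Cxcl10 was higher by 0.56 ± 0.12 (limma adjusted p = 0.029), the only call among the 10 genes, where 7.9% of all genes were called. Cxcl1 and Cxcl10 had groups that did not overlap, 2 of 10 beside 35.2% of all genes. The Cxcl10 call ended under 8 of 22 alternatives. On the deposited values, where the median of all genes was -0.39, the difference was 0.29 (adjusted p = 0.0974). With the control-probe separation as a covariate the adjusted p was 0.0999, with the 2 groups alone 0.105, without the 3 arrays of low separation, which leaves 1 FAP-TK control tumour, 0.241, and from 0.0707 to 0.0932 without FAP-TK control replicate 1 or 3 or aSMA-TK control replicate 2 or 3. It ran from 0.00909 to 0.241 over all alternatives, and the gene lay under the negative-control median on all 12 arrays. The part of array background in this difference cannot be told apart from that of the line.

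Cxcl10 was followed across arrays by the other interferon genes. Within groups, its deviations and those of the mean of 11 interferon-induced genes correlated at r = 0.95 (rho = 0.99, n = 12 arrays), and at r = 0.92 without the 2 arrays farthest from the median of that mean. In the tumours labelled aSMA depleted against aSMA-TK control tumours, 10 of the 11 interferon genes were below 0 with a median of -0.59, and none passed the test. Over all genes 53.1% were above 0 there. Ifit1, which encodes an antiviral RNA-binding protein, stood at -1.17 ± 0.31 (unadjusted p = 0.00365, adjusted p = 0.943). Between the control groups, aSMA-TK against FAP-TK, 11 of 11 were above 0 with a median of 0.71, beside 58% of all genes. Ifit1 (1.90 ± 0.31, limma adjusted p = 0.0122) and the GTPase gene Gbp3 (1.27 ± 0.28, limma adjusted p = 0.0308) were called higher, where 7.9% of all genes were called. With dim genes left out 0 genes were called. At most 1 of the 11 stood above the 95th percentile of the negative controls on any array. Line and array background cannot be told apart here either. The other interferon-induced ligands of Cxcr3 did not share one pattern. Cxcl9 read 5.60, 3.95 and 3.72 in the tumours labelled aSMA depleted and 3.65, 6.06 and 5.81 in aSMA-TK control tumours, while all 6 arrays of the FAP line lay between 3.40 and 3.63. Cxcl11 stayed between 3.76 and 4.30 on all 12 arrays.

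**Figure D4:**
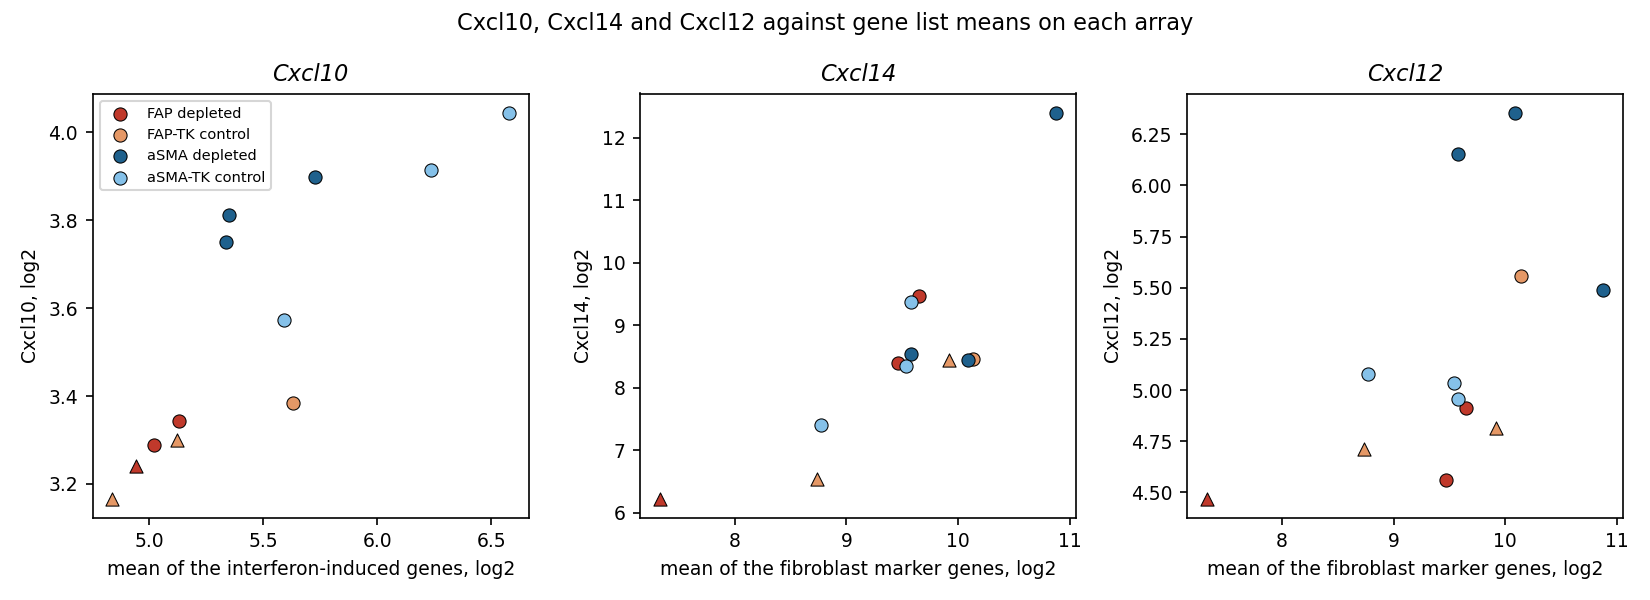
Cxcl10 against the mean of 11 interferon-induced genes, and Cxcl14 and Cxcl12 against the mean of 9 fibroblast marker genes, each point 1 array on log2 axes. Triangles mark the 3 arrays of low control-probe separation. Cxcl10 rises with the interferon mean, and Cxcl14 with the fibroblast mean up to 12.40, while the tumours labelled aSMA depleted hold the 2 highest Cxcl12 values at fibroblast means below the highest.

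Cxcl12, the stromal ligand of Cxcr4, differed more between depleted and control tumours of the aSMA line than any other of the 10 genes relative to its error. It lies at chr6:117168535-117181368 of GRCm38.p6. The 250 bases before its start (chr6:117168285-117168534, plus strand) are shown because neither motif was found in them on either strand.
Cxcl12: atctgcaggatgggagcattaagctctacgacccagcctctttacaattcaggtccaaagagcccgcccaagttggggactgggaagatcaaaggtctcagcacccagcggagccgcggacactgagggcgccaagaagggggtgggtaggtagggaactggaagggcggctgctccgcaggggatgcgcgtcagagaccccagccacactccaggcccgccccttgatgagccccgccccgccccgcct
The absence of these letters from the window says nothing about the factors. The deviations of Cxcl12 went with the NF-kB target mean at r = 0.66 (r = 0.71 without 2 arrays) and with the interferon mean at r = 0.58 (r = 0.78 without 2 arrays).

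Its values were 4.56, 4.47 and 4.91 in FAP depleted tumours and 4.71, 5.56 and 4.82 in FAP-TK control tumours, with overlapping groups (-0.38 ± 0.26, adjusted p = 1.00). In the tumours labelled aSMA depleted they were 6.15, 6.36 and 5.49, each above the 4.95, 5.03 and 5.08 of aSMA-TK control tumours, and the exact permutation test gave its lowest possible p for such groups, 0.1. The difference of 0.98 ± 0.26 had a 95% interval from 0.39 to 1.57 and lay between 0.48 and 1.23 under the alternatives, with adjusted p from 0.333 to 1.00. Setting the effects in the 2 lines against each other gave 1.36 ± 0.37 (unadjusted p = 0.00475, adjusted p = 0.828), where 0% of all genes were called and 1835 genes, or 5.97%, had an unadjusted p under 0.05.

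Between the depleted groups, labelled aSMA against FAP, Cxcl12 was higher by 1.35 ± 0.26 (limma adjusted p = 0.0251) and Cxcl10 by 0.53 ± 0.12 (limma adjusted p = 0.0401), so 2 of 10 genes rose where 5.18% of all genes were called. Both values rest on groups that also differ in line and array background, and Cxcl12 did not differ detectably between the controls of the same lines, at -0.0068 ± 0.26. On the deposited values that last difference was -0.66 (adjusted p = 0.0434), where the median of all genes was -0.39. Without the 3 arrays of low separation the Cxcl12 difference was 1.26 (adjusted p = 0.0571), with the separation as a covariate 1.17 (adjusted p = 0.0533), and with the 2 groups alone 1.35 (adjusted p = 0.0828). The difference was smaller, but past the threshold, on the deposited values (0.69, adjusted p = 0.0329) and with an offset of 50 (0.62, adjusted p = 0.0364). Without 1 array it ran from 1.17 to 1.61, and the call ended without FAP depleted replicates 1 and 2 and without replicates 1 and 2 of the tumours labelled aSMA depleted. The Cxcl10 call ended under 14 of its 22 alternatives, with adjusted p from 0.0146 to 0.342, and the difference itself lay between 0.103 with an offset of 50 and 0.685, with 0.16 on the deposited values. Over all 4 groups, the limma F test called Cxcl10 (adjusted p = 0.0265) and Cxcl12 (adjusted p = 0.0464), where 6.86% of all genes were called. Most alternatives ended these calls: Cxcl10 kept its call in 10 of 21 (adjusted p from 0.00855 to 0.22) and Cxcl12 in 8 of 21 (adjusted p from 0.0116 to 0.131).

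Stromal and myeloid marker levels were read beside Cxcl12. The 9 measured fibroblast markers, with the target gene Fap among them, had means between 9.58 and 10.88 in the tumours labelled aSMA depleted. In aSMA-TK control tumours the means lay between 8.77 and 9.58. All 9 differences were above 0 with a median of 0.52, beside 53.1% of all genes above 0. In the FAP line the same mean lay between 7.33 and 9.65 in FAP depleted tumours and between 8.74 and 10.14 in FAP-TK control tumours. The 7.33 and the 8.74 lay on arrays of low control-probe separation, FAP depleted replicate 2 and FAP-TK control replicate 1. FAP depleted replicates 1 and 3 read 9.47 and 9.65, inside the range of the controls. All 9 differences were below 0 with a median of -0.61, where 59.7% of all genes were above 0. Of these 9, Fap is the labelled target, already checked above. None of the 9 passed the test in either line. The mean of 8 macrophage markers ran from 10.72 to 11.46 in the tumours labelled aSMA depleted and from 9.62 to 10.74 in aSMA-TK control tumours. The neutrophil mean of 11 genes ran from 6.21 to 8.14 there and from 6.36 to 7.62 in those controls. All 7 smooth muscle and pericyte markers, with the target gene Acta2 among them, were above 0 in the aSMA line. Their median was 0.715, and none passed the test. The deviations of Cxcl12 did not follow the fibroblast mean (r = 0.17, and r = -0.20 without 2 arrays). They went with the neutrophil mean at r = 0.80 (r = 0.62 without 2 arrays). The link was not particular to neutrophil genes. With the T cell mean r was 0.60 (0.62 without 2 arrays), and with the macrophage mean 0.56 (0.48 without 2 arrays). The part of these cell types in the Cxcl12 difference was not tested.

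Cxcl14, a ligand found in epithelia and in fibroblasts, lies at chr13:56288643-56296811 of GRCm38.p6. Its values were 8.40, 6.23 and 9.48 in FAP depleted tumours and 6.54, 8.46 and 8.45 in FAP-TK control tumours, a difference of 0.22 ± 1.17 (adjusted p = 1.00). They were 8.55, 8.44 and 12.40 in the tumours labelled aSMA depleted and 9.37, 8.36 and 7.41 in aSMA-TK control tumours, a difference of 1.42 ± 1.17 (adjusted p = 0.944), which fell to 0.12 without replicate 3 of the tumours labelled aSMA depleted. That tumour also held the highest fibroblast mean. Across arrays the deviations of Cxcl14 and of the fibroblast mean correlated at r = 0.86 (rho = 0.89), and at r = 0.84 without the 2 arrays farthest from the median of that mean, FAP-TK control replicate 1 and FAP depleted replicate 2. With the smooth muscle and pericyte mean r was 0.66 (0.55 without 2 arrays), and with the endothelial mean 0.57 (0.47 without 2 arrays). The 3 genes of most similar deviations among 2521 well-detected genes were Tnc (r = 0.93), Mfap5 (r = 0.91) and Postn (r = 0.90), which encode tenascin C, a microfibril protein and periostin, all of the extracellular matrix.

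Cxcl16, made as a transmembrane protein that is shed by Adam10 and Adam17, was the best detected of the 10 genes. It lies at chr11:70454389-70459984 of GRCm38.p6 and has no entry in the promoter table. Its values were 10.98, 9.02 and 10.52 in FAP depleted tumours and 8.99, 11.44 and 9.55 in FAP-TK control tumours, a difference of 0.18 ± 0.72 (adjusted p = 1.00, 95% interval -1.43 to 1.79). They were 10.96, 10.14 and 9.27 in the tumours labelled aSMA depleted and 9.75, 10.32 and 10.91 in aSMA-TK control tumours, a difference of -0.20 ± 0.72 (adjusted p = 0.983, 95% interval -1.81 to 1.40). The 2 values under 9.1, and the fourth lowest of all 12, lay on the 3 arrays of low separation. Without those arrays the difference in the FAP line turned to -0.69, which sets 2 tumours against FAP-TK control replicate 2 alone, the highest of all 12 values.

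**Figure D5:**
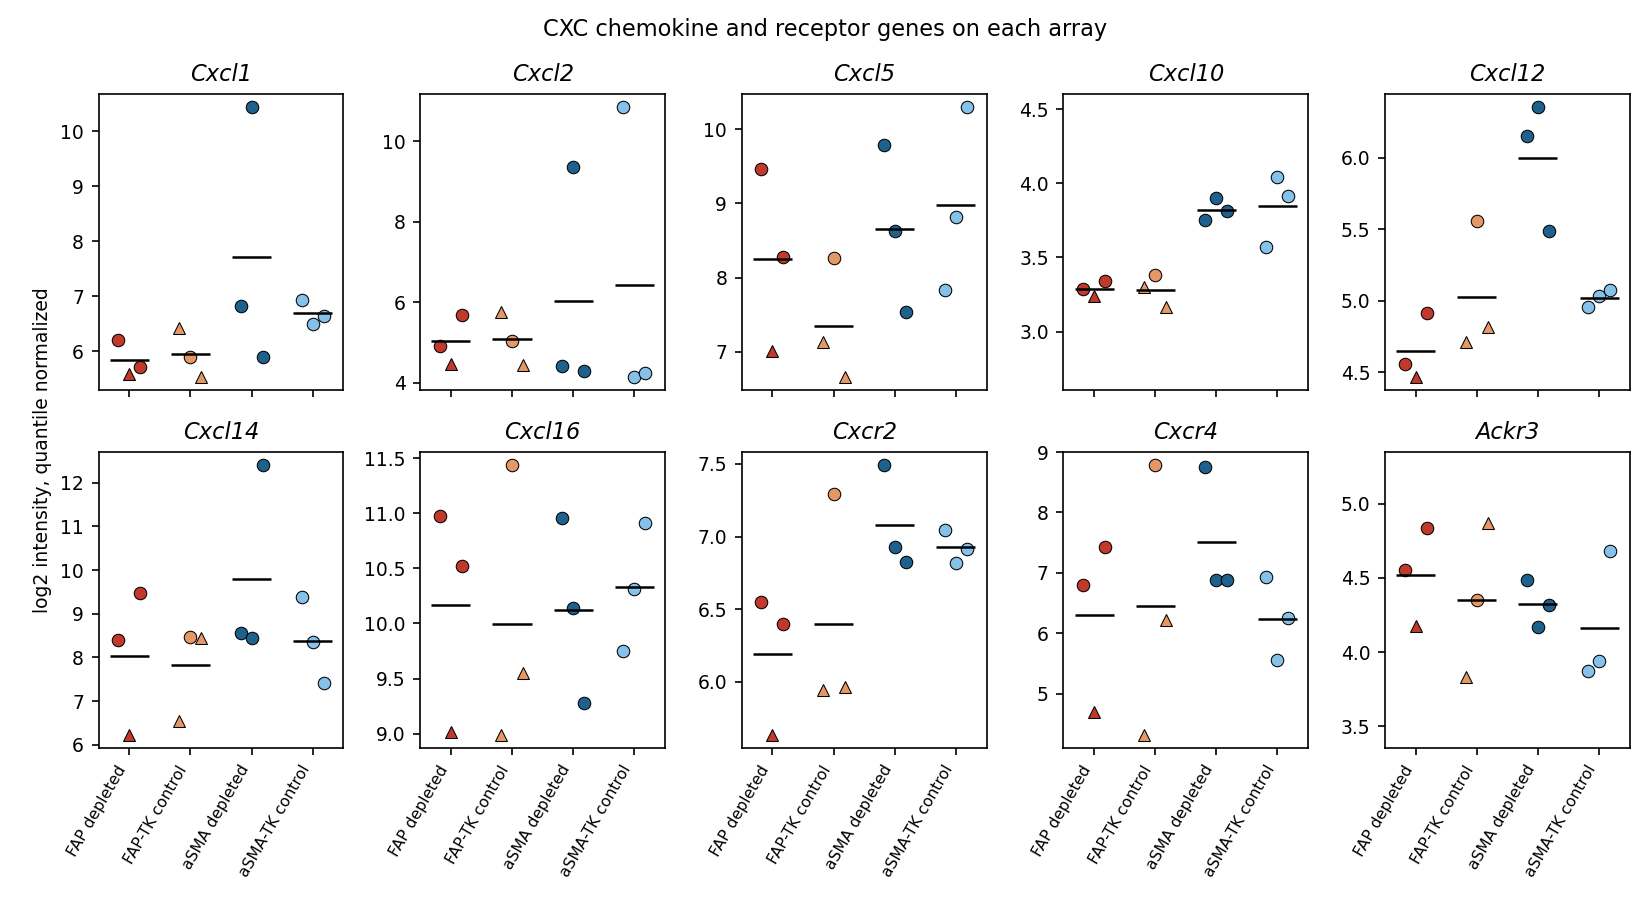
Log2 value of each of the 10 genes on the 12 arrays, 1 panel per gene with its own axis. Points are arrays, triangles the 3 arrays of low control-probe separation, and bars the group means. The tumours labelled aSMA depleted lie above aSMA-TK controls without overlap only for Cxcl12. On these normalized values Cxcl10 separates the 2 lines.

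Of the receptor genes, Cxcr2, the receptor of the neutrophil-attracting ligands, lies at chr1:74153994-74161246 of GRCm38.p6. It read 6.55, 5.64 and 6.40 in FAP depleted tumours and 5.94, 7.29 and 5.97 in FAP-TK control tumours (-0.20 ± 0.37, adjusted p = 1.00). It read 7.49, 6.93 and 6.82 in the tumours labelled aSMA depleted and 7.05, 6.82 and 6.91 in aSMA-TK control tumours (0.15 ± 0.37, adjusted p = 0.981). Neither pair of groups was separate, and the deviations went with the mean of 11 neutrophil genes at r = 0.78 (rho = 0.77, and r = 0.77 without the 2 arrays farthest from the median of that mean). The link was not particular to neutrophil genes, since r was 0.74 with the macrophage mean, 0.728 with the endothelial and 0.725 with the ductal epithelial mean, and without 2 arrays 0.83 with the T cell and 0.79 with the smooth muscle and pericyte mean. Labelled aSMA depleted against FAP depleted tumours, Cxcr2 was the third gene with groups that did not overlap, at 0.89 ± 0.37 (adjusted p = 0.179), where 32.9% of all genes had such groups.

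Cxcr4, the signalling receptor of Cxcl12, lies at chr1:128588199-128592299 of GRCm38.p6. Its values were 6.79, 4.69 and 7.43 in FAP depleted tumours and 4.32, 8.78 and 6.23 in FAP-TK control tumours, a difference of -0.14 ± 1.10 (adjusted p = 1.00). They were 8.76, 6.87 and 6.89 in the tumours labelled aSMA depleted and 6.93, 5.55 and 6.25 in aSMA-TK control tumours, a difference of 1.26 ± 1.10 (adjusted p = 0.944, exact permutation p = 0.3). The 2 lowest of the 12 values lay on arrays of low separation, and aSMA-TK control replicate 1, at 6.93, lay above 2 of the 3 tumours labelled aSMA depleted. Deviations of Cxcr4 went with those of the macrophage mean at r = 0.87 (rho = 0.84), and at r = 0.75 without the 2 arrays farthest from its median, which were FAP-TK control replicate 1 and FAP depleted replicate 2. With the neutrophil mean r was 0.78 (0.80 without 2 arrays), and with the smooth muscle and pericyte mean 0.58 (0.755 without 2 arrays).

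Ackr3, which takes up Cxcl12 without signalling through G proteins, lies at chr1:90203980-90215724 of GRCm38.p6. It read 4.55, 4.18 and 4.83 in FAP depleted tumours and 3.83, 4.35 and 4.87 in FAP-TK control tumours (0.17 ± 0.29, adjusted p = 1.00). Tumours labelled aSMA depleted read 4.48, 4.17 and 4.32, and aSMA-TK control tumours 3.87, 3.94 and 4.68 (0.16 ± 0.29, adjusted p = 0.969). The groups overlapped in both lines, the 95% intervals running from -0.49 to 0.83 in the FAP line and from -0.50 to 0.82 in the aSMA line. The gene closest in its deviations was C4b, which encodes a complement component (r = 0.91).

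Other genes of the system were read from lists. Of 8 further CXC ligands, 2 were above 0 and 6 below in FAP depleted against FAP-TK control tumours, and 6 above and 2 below in the tumours labelled aSMA depleted against aSMA-TK control tumours (median 0.70), and none passed the test in either. Over all genes 59.7% were above 0 in the FAP line and 53.1% in the aSMA line. Cxcl13, which draws B cells, had 14.13, 15.44 and 8.16 in the tumours labelled aSMA depleted and 7.81, 11.12 and 6.85 in aSMA-TK control tumours (3.99 ± 2.48, adjusted p = 0.943). It was as high in 1 FAP-TK control tumour, at 14.39. The platelet ligand gene Ppbp stood at 0.91 ± 0.44 (adjusted p = 0.943) in the aSMA line.

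None of 5 further receptor genes was called in either depletion comparison. All 5 were below 0 in FAP depleted against FAP-TK control tumours, where 59.7% of all genes were above 0. In the tumours labelled aSMA depleted against aSMA-TK control tumours 4 of the 5 were above 0, beside 53.1% of all genes. Ackr1, the chemokine scavenger of venules and red cells, had the smallest unadjusted p there (0.58 ± 0.22, unadjusted p = 0.0267, limma adjusted p = 0.943). All 5 enzymes that cut CXC ligands were above 0 in that comparison with a median of 0.61, none passing. Mmp9, a neutrophil and macrophage gelatinase that trims ELR ligands, read 5.89, 8.22 and 7.18 in the tumours labelled aSMA depleted, above the 5.57, 5.34 and 5.53 of aSMA-TK control tumours (1.61 ± 0.55, unadjusted p = 0.015, adjusted p = 0.943). Dpp4, which inactivates Cxcl12 and Cxcl10 by clipping their ends, read 6.59, 5.76 and 5.97 there and 5.44, 5.59 and 5.44 in those controls (0.61 ± 0.25, adjusted p = 0.943). For 2 of the 5 enzymes the groups of that line did not overlap, beside 12.5% of all genes. An unadjusted limma p under 0.05 was also found for 2 of the 5, beside 4.83% of all genes. Labelled aSMA depleted against FAP depleted tumours, Mmp9 was higher by 2.48 ± 0.55 (limma adjusted p = 0.0355), the only call among these 18 genes, which is near the 5.18% of all genes called there. These groups differ in line and array background as well.

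In the order of their group means, most genes had no neighbouring groups that were separate. On the normalized values Cxcl10 ran from aSMA-TK control through aSMA depleted and FAP depleted to FAP-TK control, with a gap only between the lines. Cxcl1 ran from aSMA depleted through aSMA-TK control and FAP-TK control to FAP depleted, with a gap only between the control groups. Cxcl12 ran from aSMA depleted through FAP-TK control and aSMA-TK control to FAP depleted, and only aSMA-TK control and FAP depleted tumours, as neighbours, did not overlap. For the other 7 genes every pair of neighbours overlapped.

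The genes most like each member were sought by the correlation of deviations from the group means over the 12 arrays, as a description. Closest to Cxcl1 were Rnf149 (r = 0.78), Zc3h15 (r = 0.77) and Rel (r = 0.77), the last encoding an NF-kB subunit, and closest to Cxcl2 was Nfkbia (r = 0.79). Higher values were found for Cxcl5 with Anp32-ps (r = 0.97), Cxcl16 with Sdcbp (r = 0.98), which encodes the adaptor syntenin, Cxcr4 with Cat (r = 0.98), which encodes catalase, and Cxcr2 with Capza1 (r = 0.95), which encodes an actin-capping subunit. Cxcl12 was closest to Eif3e (r = 0.89), a translation initiation factor gene, and Cxcl10 to Chmp2b (r = 0.87), an endosomal sorting gene. Over the values themselves r was -0.019 for Cxcl12 with Eif3e, 0.15 for Cxcl10 with Chmp2b and 0.22 for Cxcl1 with Zc3h15. The other pairs of this paragraph had r from 0.71 to 0.96 over the values. For Cxcl16, Cxcr2, Cxcr4 and Cxcl12 the array of largest deviation was FAP-TK control replicate 2. Without it r of the deviations was 0.97, 0.92, 0.97 and 0.83 in that order.

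Spread between tumours within groups, pooled over the 4 groups, set the width of the intervals. The groups did not vary alike. For Cxcl2 the SD was 2.89 in the tumours labelled aSMA depleted and 3.84 in aSMA-TK control tumours. It was 0.61 in FAP depleted and 0.65 in FAP-TK control tumours. For Cxcl1 it was 2.40 in the tumours labelled aSMA depleted and between 0.22 and 0.45 in the other groups. The pooled within-group SD was 2.44 for Cxcl2, larger than in 99.9% of all genes, 1.58 for Cxcl14 (99.2%), 1.48 for Cxcr4 (99%), 1.24 for Cxcl1 (98.3%), 1.12 for Cxcl5 (97.7%) and 0.97 for Cxcl16 (96.2%). Cxcr2 (0.49, 81.2%), Ackr3 (0.39, 71.8%) and Cxcl12 (0.35, 66.7%) varied less than those, but more than most genes. Only Cxcl10 varied less than most genes, at 0.14 (24.3%). Cxcl10 and Ackr3 lay under the negative-control median on all 12 arrays. The part of low signal in their spread was not tested.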

How the data were processed

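Deposited values of 12 one-colour arrays were used, 3 per group, grouped by the genotype labels. The authors deposited processed intensities that were read as log2 from their range, 1.64 to 19.93. Per the labels' protocols, RNA was extracted with Trizol and labelled with a kit for Illumina arrays, while the probe set names are of Affymetrix type. The submitters' processing notes name limma; the sources used here give no background correction or normalization. Column medians differed between lines, so the 65956 probe sets left after removal of 6732 controls were quantile normalized. Of 32750 probe sets with a listed symbol, 30604 had 1, and 603 with several names of 1 RefSeq gene (GRCm38.p6) were kept; 827 symbols were updated. The probe set of highest mean stood for each of 30735 genes. limma 3.58.1 in R 4.3.3 fitted 1 mean per group over the 12 arrays, with two-sided moderated tests, Benjamini-Hochberg adjustment over all genes and a threshold of 0.05; the fit was tested on simulated data. Single genes were also compared by exact two-sided permutation tests. Correlations are of deviations from group means over 12 arrays that share line and background, from 110 pairs of a gene and a list, and carry no test. Beside the members, Fap and Acta2, genes of the CXC, enzyme, NF-kB and interferon lists could be named where called and otherwise as the 2 of smallest unadjusted p per list and comparison (cell type markers were given as lists; Cxcl3, Il1b and Relb fall outside this rule and were named after their values were seen), and for each member the 3 well-detected genes of most similar deviations could be named. Alternatives included other scalings, filters, variance models, array weights, control-probe separation as a covariate and leaving out arrays. The members and lists were chosen with earlier results of these data known. The number of arrays limits the precision.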

Additional observations from a re-analysis of the deposited data

How the results depend on the processing

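The counts of genes called between lines depended on the scaling and the arrays, and the background shares in the text hold only for the quantile-normalized values. Between aSMA-TK and FAP-TK controls 2428 genes were called, and 5959 with median centring, 12736 as deposited, 1600 with an offset of 50, 0 of 3761 with dim genes left out, 404 with only these groups, 6859 with array weights, 1032 with the separation covariate, 358 without the 3 low-separation arrays and 523 to 3228 without 1 array. As deposited, 3.36% of those calls were higher, against 60.8%, the median of all genes being -0.39, against 0.072. Between the depleted groups, labelled aSMA against FAP, 1592 were called, and 3516 with median centring, 14648 as deposited, 22 with dim genes left out, 1 with only these groups, 4515 with array weights, 644 without the low-separation arrays and 394 to 1907 without 1 array. As deposited, 2.29% of these were higher, against 52.6%, and 64.6% with median centring, and with dim genes left out 36.4%. Over all 4 groups 2107 were called, and 5145 with median centring, 14629 as deposited, 18 with dim genes left out, 7353 with array weights, 544 with the covariate, 524 without the low-separation arrays and 910 to 2572 without 1 array. FAP depleted against FAP-TK control gave 13 calls without the low-separation arrays, which leaves 1 control tumour, and 0 to 4 without 1 array, the 4 without FAP depleted replicate 2. The aSMA line gave 0 to 13, the 13 without replicate 3 of the tumours labelled aSMA depleted, and the difference between lines 0 to 1.

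Of the 10 genes' differences none was past the threshold in either depletion comparison under any alternative, and those that changed sign were as follows. In the FAP line array weights gave 0.29 (Cxcl1), 0.33 (Cxcl2), 0.30 (Cxcr2), 0.55 (Cxcr4) and -0.032 (Ackr3), the separation covariate -0.012 (Cxcl10), -0.30 (Cxcl14) and -0.19 (Cxcl16), and leaving out the low-separation arrays 0.077 (Cxcl1), 0.26 (Cxcl2), -0.068 (Cxcl10) and -0.69 (Cxcl16). In the aSMA line array weights gave 0.036 (Cxcl10). Between controls, aSMA-TK minus FAP-TK, the deposited values gave -0.16 (Cxcl1), -0.34 (Cxcl14), -0.44 (Cxcl16) and -0.42 (Cxcr2), array weights 0.12 (Cxcl12) and 0.12 (Cxcr4), the covariate -1.06 (Cxcl14), -0.83 (Cxcl16) and -0.15 (Cxcr2), and leaving out the low-separation arrays -0.082 (Cxcl14), -1.11 (Cxcl16) and -0.37 (Cxcr2). The cause was not tested.

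Without 1 array, differences in the FAP line ran from -0.32 to 0.13 (Cxcl1), -0.38 to 0.28 (Cxcl2), -0.051 to 0.058 (Cxcl10), -0.50 to 1.12 (Cxcl14), -0.32 to 0.90 (Cxcl16), -0.43 to 0.24 (Cxcr2), -1.20 to 1.03 (Cxcr4) and -0.089 to 0.43 (Ackr3). In the aSMA line they ran from -0.34 to 1.94 (Cxcl1), -2.06 to 1.83 (Cxcl2), -0.90 to 0.33 (Cxcl5), -0.16 to 0.077 (Cxcl10), -0.62 to 0.22 (Cxcl16) and -0.051 to 0.28 (Cxcr2). Between controls they ran from -0.88 to 2.47 (Cxcl2), -0.17 to 0.26 (Cxcl12), -0.075 to 1.05 (Cxcl14), -0.17 to 1.06 (Cxcl16), -1.26 to 0.97 (Cxcr4), and -0.45 to 0.072 (Ackr3). Testing only probe sets with a single listed symbol, and recomputing the difference between depleted groups of Cxcl10, Cxcl12 and Cxcr2 and the F test of Cxcl10 and Cxcl12, were added after seeing the data. No paired analysis was possible because the replicate numbers follow sample order and tie no tumours together. Signal over background limits every gene here, Cxcl16 on 3 arrays of the FAP line.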
